A study of Mus musculus with 10 samples.

Results

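The 32 genes described here encode subunits of the nuclear RNA polymerases I, II and III or, in the case of Polr2m, a protein that binds polymerase II, among 56691 genes in the deposited table. They were taken by symbol: every name made of Polr1, Polr2 or Polr3 and a letter suffix, plus Twistnb, Znrd1, Cd3eap and Crcp, with pseudogenes left out. Current nomenclature calls Twistnb, Znrd1 and Cd3eap Polr1f, Polr1h and Polr1g. The genes were measured in RNA bound to ribosomes, enriched from dopaminergic neurons of the ventral tegmental area, a midbrain region. The neurons carried a construct labelled NBL10-HA, in male C57BL/6 mice with the genotype given as WT. The 5 control libraries came from mice without restraint, labelled Normal, and the 5 restraint libraries from mice after 30 min of acute restraint, a stressor in which the animal cannot move. Both groups therefore shared the construct. The promoter that drives it, the age of the mice and whether a library is 1 animal or a pool are not given in the sources used here, so p-values measure the spread between these libraries.

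RNA polymerase I makes the large ribosomal RNA precursor, RNA polymerase II makes messenger RNA, and RNA polymerase III makes transfer RNA and other small RNAs. Each is built around a pair of large subunits that form the active site, on a platform of alpha-like subunits. Some small subunits are common to every polymerase, others are specific, and each enzyme has a stalk that binds the emerging RNA. Neurons use polymerase II to make the early-response messages that follow activity, and polymerases I and III to supply ribosomes and transfer RNA.

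By complex, 6 of the 32 belong to polymerase I only, 7 to polymerase II only and 11 to polymerase III only. Another 2, Polr1c and Polr1d, are shared by I and III, and 5 (Polr2e, Polr2f, Polr2h, Polr2k and Polr2l) are common to I, II and III. Polr2m is not a core subunit, and counts of the 32 include it. All 32 passed the filter on low counts, the lowest single count being 258, for Polr3g.

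Library totals ran from 56082358 to 86584968 counts. Restraint 1 stood apart on the first principal component (score 92.1, against -19.2 to 4.08 in the other 9 libraries). The 10 dopamine neuron markers were all detected, with summed levels of 1756 to 2360 CPM (counts scaled to library size, after TMM normalization) in controls and 1933 to 2619 CPM after restraint. The 7 astrocyte markers summed to 3659 to 4215 CPM and 4176 to 5226 CPM, and the 5 vascular markers to 8.11 to 13.2 CPM and 10.7 to 18.2 CPM. For the 6 oligodendrocyte markers the sums were 1517 to 1856 CPM and 1446 to 2001 CPM. Those of the 3 GABA neuron markers were 866.2 to 1224 CPM and 901.4 to 1261 CPM. RNA of other cells was therefore present, and no level below is assigned to a cell type. In such bulk RNA, fewer cells of a type and less RNA per cell cannot be told apart. At an unadjusted p under 0.05 (edgeR), 4 of 10 dopamine neuron, 1 of 7 astrocyte and 3 of 5 vascular markers were higher. So were 2 of 6 oligodendrocyte and 0 of 3 GABA neuron markers (background 5.64%), and 0 markers of these 5 lists were lower. The part of any of these cell types in the differences below was not tested.

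The comparison asked how the transcripts of these enzymes in ribosome-bound RNA differ after restraint. Polr1c, an alpha-like subunit of polymerases I and III, fell to 0.664 of its control level and was the only subunit that passed the test. Fold changes, standard errors (SE) and p-values came from edgeR's quasi-likelihood test, adjusted by the Benjamini-Hochberg method over the 18440 genes tested, with a threshold of 0.05. Of the 32 subunits 1 was lower by this rule (background 0.0163% of genes tested) and 0 were higher (background 0.00542%). At an unadjusted p under 0.05, 7 were lower and 0 were higher, against backgrounds of 6.04% and 5.64%. The 7, or 21.9% of the subunits, included Polr1c, Polr2f, Polr2g, Polr2j, Polr2k and Polr2l. At the subunits' range of levels, the share of genes lower by that rule differed with exon length. It was 23.4% under 1500 bases and 4.79% at 5000 bases and over. DESeq2 passed 3 as lower, Polr1c and Polr2f among them (background 1.04%), and 0 as higher. Across these libraries 2 subunits had groups that did not overlap, Polr1c among them, both lower (background 1.36% of genes tested), and 0 were higher without overlap (background 1.25%). Over all 32 the median log2 fold change was -0.05 (20 negative, or 62.5%), against -0.0022 over all genes tested, of which 50.4% were negative.

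**Figure D1:**
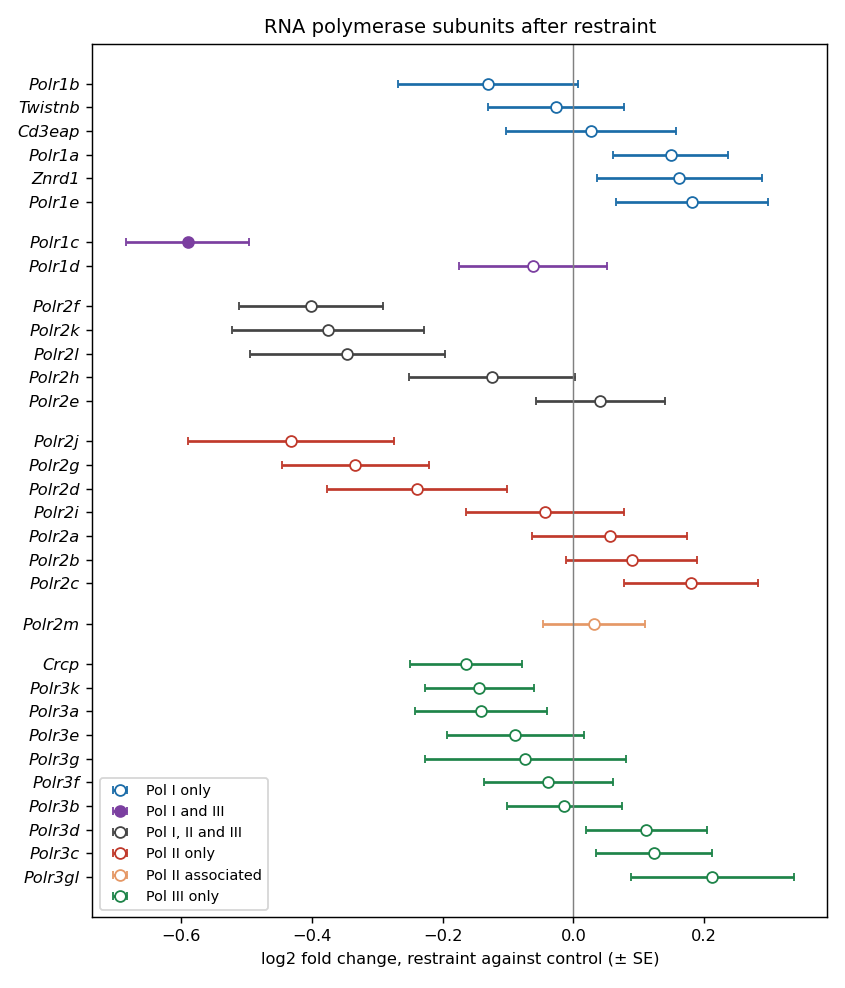
Log2 fold change of 31 subunits after restraint, with its SE (bars) and with colours for the complexes that hold the subunit. The filled point, Polr1c at -0.59, is the 1 subunit past the threshold of 0.05, and open points did not pass.

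Polr1c (ENSMUSG00000067148) lies on chromosome 17, 46554846 to 46558980, minus strand (GRCm39, the assembly of the annotation used for counting). Its product pairs with that of Polr1d at the base on which polymerases I and III assemble. Control libraries 1 to 5 held 30.6, 32.7, 31.2, 32.3 and 28.9 CPM. Restraint libraries 1 to 5 held 18.7, 21, 20.7, 18.4 and 24.7 CPM. The highest restraint library lay below the lowest control, and 5 of 5 restraint libraries were below the control median. The means were 31.2 ± 1.5 CPM and 20.7 ± 2.52 CPM (SD, n = 5 each), a log2 fold change of -0.59 ± 0.09 (SE; edgeR adjusted p = 0.0444). Adjusted p ran from 2.80e-05 (DESeq2) to 0.298 (replicate number as a block) over 22 alternatives, and 13 of the 22 kept the call. The call was lost with robust estimation (0.0591), with the block, and without control 1 (0.152), 2 (0.0743), 3 (0.162) or 4 (0.173) or restraint 1 (0.0854), 3 (0.154) or 4 (0.106), while the log2 fold change stayed between -0.67 and -0.55 in all 22.

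Polr1d, the partner of Polr1c, did not pass. Its controls 1 to 5 held 47.1, 42.1, 58.7, 46.9 and 53.1 CPM. Its restraint libraries 1 to 5 held 49.2, 56.3, 39.4, 40.6 and 52.1 CPM. The groups overlapped throughout, with a log2 fold change of -0.06 ± 0.11 (SE; edgeR adjusted p = 0.897).

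Polr1c starts head to head with Yipf3, a gene for a Golgi membrane protein, on the opposite strand. In the deposited annotation the starts are 26 bases apart. Yipf3 held 58.4, 70.4, 68.5, 68.3 and 75.9 CPM in controls 1 to 5 and 58.3, 76.3, 77.1, 66.6 and 70.2 CPM in restraint 1 to 5. Its groups overlapped, with a log2 fold change of 0.03 ± 0.09 (SE; edgeR adjusted p = 0.947). Within each library the log2 ratio of Polr1c to Yipf3 was -1.13 ± 0.17 in controls and -1.75 ± 0.17 after restraint (n = 5 each, ± SD; two-sided exact permutation p = 0.00794). That is the smallest p that 5 against 5 libraries can give, and the pair was chosen after its values were seen. The stretch between the starts as GENCODE M21 annotates them is shown because it is the DNA these diverging genes share (chr17:46248055-46248079, GRCm38, minus strand, 25 bases, read 5′ to 3′ toward Polr1c, with no part in capitals).
Polr1c and Yipf3: gaaggacgtggacagaggcggggca

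Head-to-head starts were common among the subunits. Of the 32, 13 (40.6%) had another tested gene on the opposite strand starting within 1000 bases upstream, against 12.3% of all genes tested. The subunit and its partner had log2 fold changes of the same sign in 6 of the 13 pairs and of opposite sign in 7, and 0 of the 13 partners passed the test. Polr1c and Yipf3 were the farthest apart, by 0.62 on the log2 scale.

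Promoters were searched for 7 short motifs on both strands in the 250 bases before the RefSeq start (GRCm38.p6), for 25 subunits with an entry. CCGGAAG, a sequence that ETS factors bind, stood in 6 of 25 (24.0%), against 7.05% of 27025 promoters. GGGCGG, the GC box, stood in 14 (56.0%, against 32.9%), and the NRF1 motif in 3 (12%, against 3.86%). CCAAT stood in 7 (28.0%, against 34.5%), TATAAA in 2 (8%, against 13%), the CRE motif TGACGTCA in 1 (4.00%, against 1.62%) and the YY1 motif AAGATGGC in 0 (against 1.59%). No matches of different motifs overlapped in these 25 (0 promoters). The subunit promoters had a median GC content of 59.6%, against 52.0% over all. The comparison was with all promoters, not with those of genes at the subunits' levels. A match is a description of the letters only.

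The 6 windows with CCGGAAG are shown because Polr1c, Polr2f and Polr2j are among them, each with 10 bases on either side, read on the strand that holds the motif, with the motif in capitals.
Polr1c: cacttgacgtCCGGAAGtgaaggacgt
Polr2f: ccgctgcttcCCGGAAGtaactgcgcc
Polr2j: gctgagaaatCCGGAAGtggtcgcgct
Cd3eap: ggagccgcacCCGGAAGcatccaagtc
Polr3b: gcggaggaacCCGGAAGtgaccgagcc
Polr3g: ggccacacccCCGGAAGagagcttttt
In GRCm38.p6 they lie at chr17:46248071-46248097 (minus strand), chr15:79141298-79141324 (plus), chr5:136116662-136116688 (plus), chr7:19359476-19359502 (plus), chr10:84622277-84622303 (minus) and chr13:81711026-81711052 (plus), in the order printed. The motif was on the strand of the gene in Polr1c, Polr2f and Polr2j, and on the other strand in Cd3eap, Polr3b and Polr3g. The log2 fold changes of the first group were -0.59, -0.40 and -0.43, and those of the other group 0.03, -0.01 and -0.07. This split was noticed after the values were seen and rests on 6 genes. The Polr1c window overlaps the stretch between the starts of Polr1c and Yipf3 shown above, and Yipf3 stood at 0.03.

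Among the 5 subunits common to all polymerases, 4 had negative log2 fold changes (against 50.4% of all genes tested), with a median of -0.35. With edgeR 3 were lower at an unadjusted p under 0.05 (background 6.04%), and 0 passed the adjusted test. At the subunits' range of levels, that background was 23.4% for genes with exons under 1500 bases. It was 11.3% from 1500 to under 3000 bases, and all 5 have exons under 3000 bases. Polr2f, Polr2k and Polr2l encode small subunits, Polr2k and Polr2l with zinc-binding sites, that hold the core together. Polr2f (chromosome 15, 79025209 to 79035974) had 48.7, 49.2, 53.1, 47.4 and 40.1 CPM in controls 1 to 5. After restraint it had 32.8, 42.4, 34.7, 29.1 and 41.5 CPM. Control 5 lay among the restraint libraries, and 5 of 5 restraint libraries lay below the control median. Its log2 fold change was -0.40 ± 0.11 (SE; edgeR adjusted p = 0.165), and it passed with DESeq2 (adjusted p = 0.0304) and when all genes with at least 1 count were kept (edgeR adjusted p = 0.0166).

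Polr2k (chromosome 15, 36174156 to 36177156) had 26.0, 17.6, 24.6, 23.6 and 21.9 CPM in controls 1 to 5, and 19.2, 20.4, 14.7, 12.1 and 21.1 CPM in restraint 1 to 5. Control 2 lay below 3 of the restraint libraries. The log2 fold change was -0.38 ± 0.15 (SE; edgeR adjusted p = 0.317). The reference names 1 pseudogene after this gene, Polr2k-ps, and multi-mapping reads did not enter the counts, so its level is uncertain.

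Polr2l (chromosome 7, 141051773 to 141055045) had 50, 45.5, 52.9, 45.3 and 37.8 CPM in controls 1 to 5. After restraint it had 28.7, 53.2, 34.7, 27.8 and 37.7 CPM. Restraint 2 was the highest library of all 10 while the other 4 restraint libraries lay below every control. The log2 fold change was -0.35 ± 0.15 (SE; edgeR adjusted p = 0.371). It was -0.53 without restraint 2 (edgeR adjusted p = 0.0869), -0.27 without restraint 1 and -0.26 without restraint 4.

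The other two common subunits differed less. Polr2h had 24.9, 19.8, 26.3, 27.6 and 24.2 CPM in controls and 24.0, 25.8, 21.4, 16.1 and 25.4 CPM after restraint (log2 -0.12 ± 0.13 SE). Polr2e, which encodes a subunit at the jaw that grips the DNA, had 62.1, 71.1, 81.9, 71.1 and 73.5 CPM in controls and 73.7, 90.7, 67.8, 65.0 and 73.0 CPM after restraint (log2 0.04 ± 0.10 SE). The groups overlapped in both. Polr2h stood at -0.02 without restraint 4, -0.19 without control 2, -0.19 by limma-voom with quality weights and -0.07 with the length trend removed.

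The restraint libraries were not alike in the common subunits. Relative to the control mean, the median of the 5 was -0.70 in restraint 4 and -0.40 in restraint 3 (log2 CPM with a pseudocount of 0.5), -0.23 in restraint 1 and -0.09 in restraint 5, against 0.08 in restraint 2. In controls it ran from -0.04 to 0.16. The slope of log2 CPM, taken as a gene's deviation from its mean over the 10 libraries, on log2 exon length varied between libraries as well, and was highest in restraint 4 (0.0971 log2 units per doubling), 0.0672 in restraint 1 and 0.0120 in restraint 3, against -0.0455 in restraint 5 and -0.0674 in restraint 2. In controls the slope ran from -0.0710 to 0.0657. The part of this slope in the values of the common subunits was not tested by itself. With each library's length trend removed, Polr2f stood at -0.40, Polr2l at -0.32 and Polr2k, the gene with the shortest exons of the 32 at 624 bases, at -0.17. Polr1c stood at -0.58 by the same fit (edgeR adjusted p = 0.013).

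**Figure D2:**
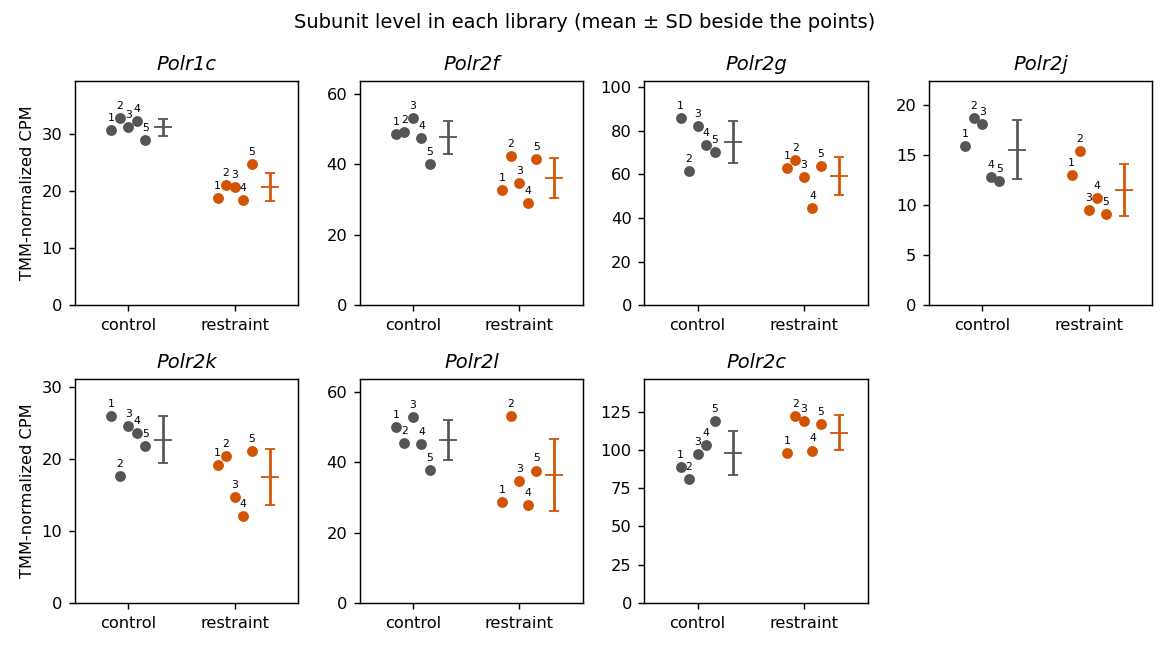
TMM-normalized CPM of 7 subunits in each library (points, numbered by replicate; grey control, orange restraint), with mean and SD beside them. Polr1c, with controls at 28.9 to 32.7 CPM and restraint at 18.4 to 24.7 CPM, does not overlap between groups, and Polr2c is the alpha-like counterpart of Polr1c in polymerase II.

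In polymerase II, 7 genes encode subunits of that enzyme only. Of these, 4 had negative log2 fold changes (against 50.4% of all genes tested) and 2 were lower at an unadjusted p under 0.05 (background 6.04%). All 4 have exons under 1500 bases. Among genes of that length at the subunits' range of levels, 68.8% were negative and 23.4% were lower by that rule. With edgeR or DESeq2, 0 passed the adjusted test. Polr2a, the largest subunit, whose repetitive tail is phosphorylated during transcription, had 33.5, 47.1, 38.9, 34.0 and 42.7 CPM in controls 1 to 5. After restraint it had 33.3, 45.4, 41.5, 48.0 and 36.0 CPM. The groups covered nearly the same range (log2 0.06 ± 0.12 SE).

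Polr2b, the partner of Polr2a at the active site, had 58.5, 65.2, 51.5, 53.1 and 62.1 CPM in controls and 71.5, 60.2, 57.7, 68.4 and 51.2 CPM after restraint (log2 0.09 ± 0.10 SE). The stalk genes stood on the negative side. Polr2g (chromosome 19, 8770491 to 8775941) had 85.7, 61.6, 82.2, 73.7 and 70.5 CPM in controls and 62.9, 66.5, 58.7, 44.5 and 63.9 CPM after restraint. Control 2 lay among the restraint libraries, restraint 4 lay apart below, and the log2 fold change of -0.33 ± 0.11 did not pass (SE; edgeR adjusted p = 0.245). Its stalk partner Polr2d stood at 28.2 ± 2.34 CPM in the controls against 23.9 ± 5.96 CPM with restraint (SD, n = 5 each; log2 -0.24 ± 0.14 SE). That value was -0.37 without restraint 5, -0.16 without restraint 3 and -0.13 with the length trend removed.

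The alpha-like pair of polymerase II had opposite signs. Polr2j (chromosome 5, 136145485 to 136151801) had 15.9, 18.7, 18.1, 12.8 and 12.4 CPM in controls and 13, 15.4, 9.57, 10.7 and 9.09 CPM after restraint. Controls 4 and 5 lay among the restraint libraries (log2 -0.43 ± 0.16 SE; edgeR adjusted p = 0.282). Polr2c had 89.1, 81.2, 97.6, 103.5 and 118.9 CPM in controls and 97.9, 122.1, 119.1, 99.6 and 116.9 CPM after restraint, above the control median in 5 of 5 libraries (log2 0.18 ± 0.10 SE; edgeR adjusted p = 0.530). Polr2i, a zinc-ribbon subunit that acts in transcript cleavage, stood at -0.04 ± 0.12, with 26.8% of its exon bases shared with Tbcb, a more abundant gene on the opposite strand. Polr2c shares 18.1% of its exon bases with Dok4 and Polr2j 15.9% with Lrwd1, also on the opposite strand. Polr2m, whose product binds polymerase II and limits initiation, stood at 378.1 ± 28.3 CPM in the controls against 386.5 ± 30.9 CPM with restraint (SD, n = 5 each; log2 0.03 ± 0.08 SE).

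Polymerase I had 6 genes of its own, 4 with positive and 2 with negative log2 fold changes, and a median of 0.09. Of all genes tested, 50.4% were negative. With edgeR 0 of the 6 reached an unadjusted p under 0.05 (backgrounds 6.04% lower and 5.64% higher), and 0 passed with DESeq2. Polr1a, the largest subunit, had 26.0, 27.8, 28.1, 29.4 and 33.4 CPM in controls and 31.3, 33.3, 34.1, 32.5 and 29.0 CPM after restraint. All 5 restraint libraries lay above the control median, and controls 4 and 5 lay among them (log2 0.15 ± 0.09 SE; edgeR adjusted p = 0.554). Polr1b, the other active-site subunit, had 12.9, 11.3, 11.2, 10 and 11.5 CPM in controls and 13.4, 12, 8.64, 8.95 and 9.09 CPM after restraint, with restraint 1 the highest of all 10 libraries (log2 -0.13 ± 0.14 SE). Without restraint 1 its log2 fold change was -0.23, and without control 1, restraint 3 or restraint 4 it was -0.08. Polr1e and Cd3eap, which form a dimer that resembles the factor TFIIF, stood at 0.18 ± 0.12 and 0.03 ± 0.13, the zinc-ribbon gene Znrd1 at 0.16 ± 0.13 and the stalk gene Twistnb at -0.03 ± 0.10. Znrd1 stood at 0.33 with the length trend removed, at 0.25 without control 3 and at 0.10 without control 2.

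In polymerase III, 8 of the 11 specific genes had negative log2 fold changes (against 50.4% of all genes tested), 0 passed with edgeR, and the median was -0.07. Crcp, a stalk subunit, was below the control median in 5 of 5 restraint libraries, at 31.3 ± 2.31 CPM in the controls against 27.9 ± 1.80 CPM with restraint (SD, n = 5 each; log2 -0.16 ± 0.09 SE; edgeR adjusted p = 0.482). The stalk genes Polr2g, Polr2d, Crcp and Twistnb all had negative log2 fold changes, from -0.33 to -0.03. Polr3a, the largest subunit, had 16, 16.9, 16.2, 15.9 and 17.8 CPM in controls and 16.9, 15.8, 15.3, 14.6 and 12.5 CPM after restraint, which overlap (log2 -0.14 ± 0.10 SE, and -0.09 without restraint 5). Polr3b, its active-site partner, had 22.3, 24.0, 23.1, 26.3 and 21.5 CPM in controls and 22.4, 23.9, 23.6, 21.2 and 25.0 CPM after restraint, nearly the same range (log2 -0.01 ± 0.09 SE).

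Polr3g and Polr3gl encode alternative versions of one subunit, which joins Polr3c and Polr3f in a trimer that opens the promoter, and Polr3g is best known from stem cells. Polr3g held 4.53, 4.10, 3.84, 5.44 and 4.70 CPM in controls and 4.18, 3.89, 5.26, 4.06 and 4.11 CPM after restraint (log2 -0.07 ± 0.15 SE). Polr3gl held 24.7, 18.5, 21.4, 27.3 and 27.7 CPM in controls and 24.5, 31.7, 30.3, 22.5 and 29.5 CPM after restraint (log2 0.21 ± 0.12 SE, and 0.14 without control 2). Both sets of groups overlapped. Per kilobase of exon, Polr3g stood at 1.15 CPM and Polr3gl at 15 CPM in controls. Polr3c (0.12 ± 0.09), Polr3d (0.11 ± 0.09), Polr3e (-0.09 ± 0.11), Polr3f (-0.04 ± 0.10) and the zinc-ribbon gene Polr3k (-0.14 ± 0.08) are also specific to polymerase III, and none of these 5 passed. Polr3d stood at 0.06 without restraint 2.

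Levels between genes were compared as control CPM per kilobase of annotated exon, a scale that depends on how many exons are annotated for a gene. In 11 of the subunits part of the exon bases is shared with another gene, and reads overlapping both genes were not assigned. Among subunits of polymerase II only, Polr2g was highest at 59.9 ± 7.68 and Polr2a lowest at 5.55 ± 0.82 CPM per kb (SD, n = 5 each), a range of 10.8-fold. The common subunits were closer, from 16.3 (Polr2h) to 36.4 (Polr2k) CPM per kb, a range of 2.23-fold. Polymerase I genes ran from 1.96 (Polr1b) to 19.5 (Znrd1) and polymerase III genes from 1.15 (Polr3g) to 23.5 (Polr3k) CPM per kb. The largest subunits were near the bottom of each enzyme, with Polr1a at 2.44, Polr3a at 2.84 and Polr2a at 5.55 CPM per kb. Polr2m, at 156.0 CPM per kb, lay above all others, and neighbours in the order overlapped in range apart from 6 steps, below Polr2m, Polr2g, Polr3k, Polr3d, Polr3e and Polr1b.

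**Figure D3:**
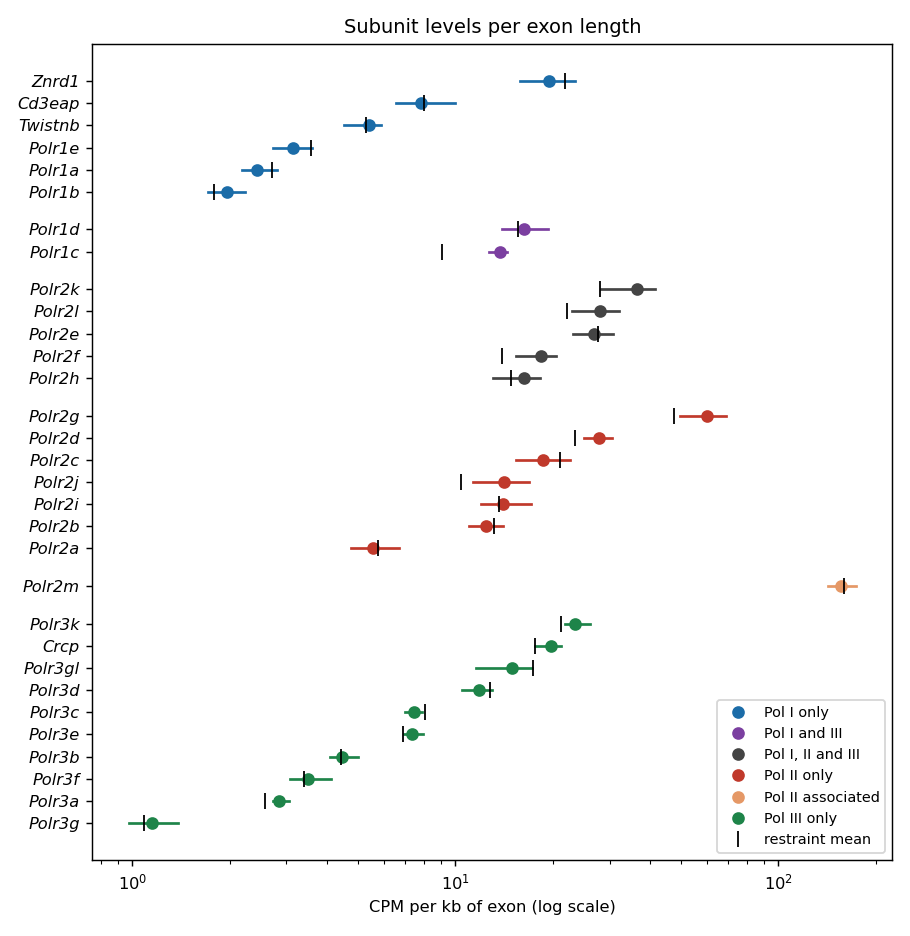
Control level of 31 subunits as CPM per kilobase of exon on a log axis: points are the means, lines run from the lowest to the highest of the 5 control libraries, and black ticks are the restraint means. Polr2m is highest at 156.0 and Polr3g lowest at 1.15.

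Corresponding subunits of the polymerases were compared as log2 ratios within each library, a measure that does not depend on normalization, for 16 pairs chosen with earlier results known. The ratio of Polr1c to Polr2c was -1.64 ± 0.26 in controls and -2.43 ± 0.12 after restraint (± SD, both n = 5; exact permutation p = 0.00794, adjusted over the 16 pairs 0.0635). No restraint library reached the control range, and the exact p was the smallest that 5 against 5 libraries can give. Adjusted over 16 pairs, that smallest p passes only if several pairs reach it. The adjusted p did not pass, and it could not decide on this pair alone. The largest subunits of polymerases I and III, Polr1a to Polr3a, had a ratio of 0.80 ± 0.09 in controls and 1.10 ± 0.13 after restraint (± SD, both n = 5; exact permutation p = 0.0159, adjusted 0.0848).

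Polr1c to Polr2c differed most between the groups. For Polr1a to Polr3a restraint minus control was 0.299. Larger values included those of Polr1d to Polr2j (0.373), Znrd1 to Polr3k (0.313) and Twistnb to Polr2g (0.309). Their exact permutation p were 0.0873, 0.0952 and 0.111, before adjustment. Polr3g to Polr3gl was -2.40 ± 0.15 in controls and -2.69 ± 0.24 after restraint (± SD, both n = 5; exact permutation p = 0.0635, adjusted 0.203). Of the 16 pairs 0 passed after adjustment, with 4 at an unadjusted exact p under 0.05, Znrd1 to Polr2i among them (0.0317, adjusted 0.127). The smallest possible exact p, 0.00794, left little room for any pair to pass.

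**Figure D4:**
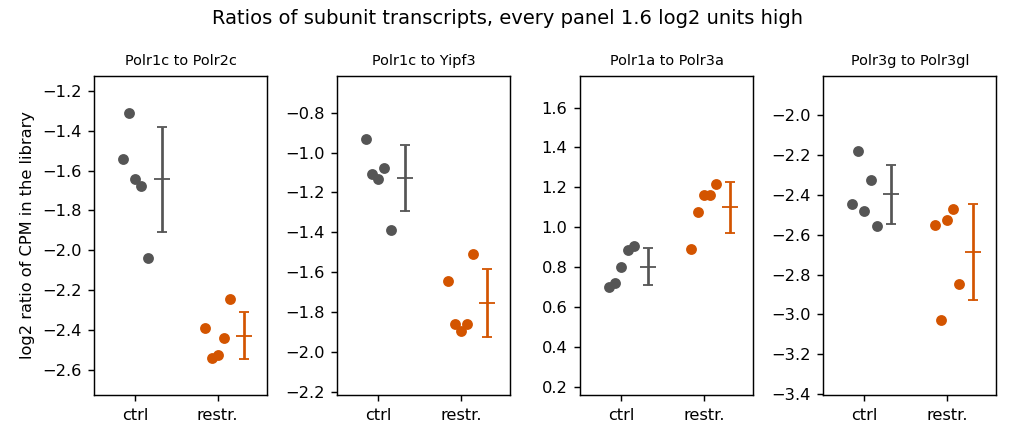
Log2 ratio of CPM within each library for 4 pairs of genes (points; grey control, orange restraint; mean and SD beside them), each panel spanning 1.6 log2 units. Polr1c to Polr2c and Polr1c to Yipf3 are separated between groups, with restraint lower, and Polr3g to Polr3gl, which overlaps, is not.

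Fold changes were also set against exon length. Over the 32 the log2 fold change and log2 exon length were correlated with Pearson r = 0.366 and Spearman rho = 0.339, across genes that share the same libraries and are not replicates. The 6 subunits with exons under 1500 bases had a median log2 fold change of -0.29, and 3 of them had an unadjusted p under 0.05 and were lower. Genes of that length within the subunits' range of control levels (606 genes at 4.52 to 378.1 CPM) had a median of -0.10, 68.8% of them were negative, and 23.4% were lower at an unadjusted p under 0.05. From 1500 to under 3000 bases the 10 subunits had a median of -0.05 and 3 were lower by that rule, where 2091 genes had a median of -0.01 and 11.3%. From 3000 to under 5000 bases 1 of 7 was lower (7.44% of 3184 genes), and at 5000 bases and over 0 of 9 (4.79% of 5242 genes).

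**Figure D5:**
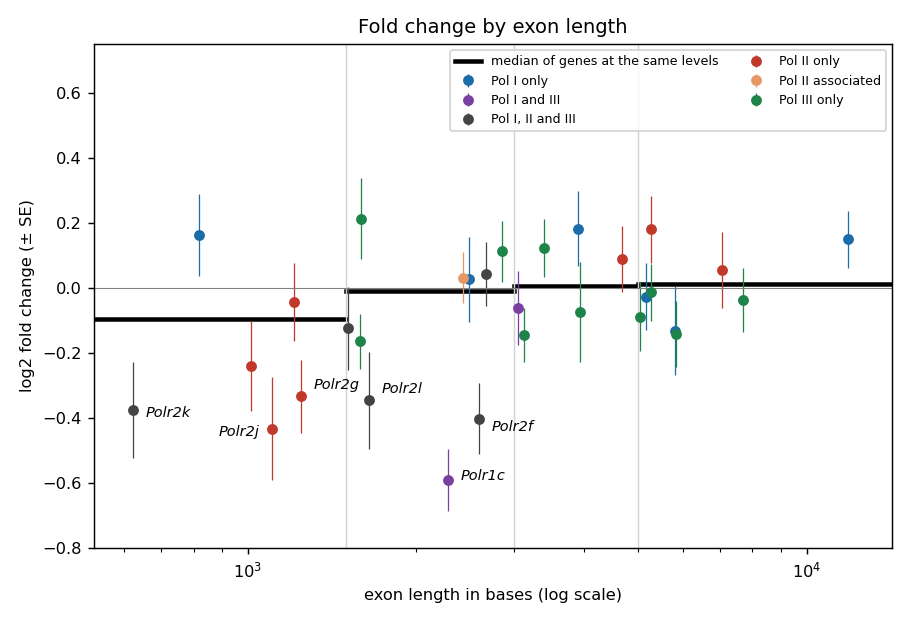
Log2 fold change (points, with SE) of 31 subunits against exon length on a log axis, with the median of all genes at the same range of levels in 4 length classes (black bars, from -0.10 under 1500 bases to 0.01 at 5000 and over). The 6 named subunits have an unadjusted p under 0.05, and Polr1c at -0.59 is the lowest.

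Genes that work with the polymerases were read from 6 lists, and 0 of their 81 members passed with edgeR over the 18440 genes tested. Over all genes tested 50.4% were negative, and at an unadjusted p under 0.05 6.04% were lower and 5.64% higher. The counts from each list stand against these shares. Of 8 initiation factors of polymerase I, 6 were positive (median 0.09) and 2 had an unadjusted p under 0.05. These were Ubtf, which binds the ribosomal gene promoter, at 155.2 ± 17.8 and 184.9 ± 20.2 CPM (SD, n = 5 each; log2 0.25 ± 0.09 SE), and Taf1c (0.37 ± 0.13). On the negative side stood Ttf1, the termination factor (-0.27 ± 0.14), and Rrn3, which brings polymerase I to the promoter (-0.09 ± 0.10). Of 16 polymerase III factors, 11 were positive (median 0.05), 3 higher and 1 lower at an unadjusted p under 0.05. Brf1 (0.26 ± 0.10) and Gtf3c1 (0.23 ± 0.09), which recruit polymerase III, were positive, and Maf1, its repressor (-0.22 ± 0.11), and Gtf3c3 (-0.10 ± 0.08) were negative.

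Of 17 general factors of polymerase II, 10 were negative (median -0.02; background 50.4%). At an unadjusted p under 0.05, 1 was higher and 1 lower (backgrounds 5.64% and 6.04%). These were subunits of the factor TFIIH, Gtf2h1 (0.23 ± 0.08) and Gtf2h5 (-0.22 ± 0.08), with Ercc3 (0.13 ± 0.09) and Gtf2h2 (-0.19 ± 0.10) next. Of 22 pausing and elongation factors, 9 were negative (median 0.02), 4 lower and 2 higher by that rule. Supt4a, which with Supt5 forms an elongation clamp, had the smallest p of the 81, at 44.0 ± 5.36 and 32.7 ± 2.03 CPM (SD, n = 5 each; log2 -0.43 ± 0.09 SE; edgeR adjusted p = 0.0871). It passed with DESeq2 (adjusted p = 0.00347) and with edgeR when all genes with at least 1 count were kept (adjusted p = 0.00641). In the other alternatives it did not pass, with edgeR adjusted p = 0.136 after removal of the length trend and 0.325 with the replicate block. Its exons span 942 bases. Tcea2, a cleavage factor (-0.29 ± 0.11), the pausing factor Nelfa (0.21 ± 0.10) and the histone chaperone Supt16 (0.28 ± 0.12) did not pass.

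Of 13 assembly and import factors of the polymerases, 10 were negative (median -0.16; background 50.4%). At an unadjusted p under 0.05, 3 were lower and 1 higher (backgrounds 6.04% and 5.64%). Pih1d1 (-0.32 ± 0.10) and Ruvbl1 (-0.25 ± 0.08), of the chaperone machinery that assembles polymerases, were lowest in p, and Slc7a6os (0.29 ± 0.12) and the phosphatase gene Rpap2 (0.16 ± 0.09) were positive. Of 5 genes for transcription in mitochondria, 2 were negative. The initiation factor Tfb2m stood at 0.34 ± 0.10 and the packaging factor Tfam at 0.04 ± 0.08, the elongation factor Tefm at -0.35 ± 0.21 and Mterf1a at -0.19 ± 0.26, and none passed.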

How the data were processed

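Read counts per gene and library were deposited as whole numbers, per the file headers. The authors ran featureCounts 2.0.3 over GENCODE M30 exons, summed by gene identifier, according to the file headers. The options there mark the input as paired, ask neither for read pairs nor for strand, and allow neither multi-mapping nor overlapping assignment, so both ends of a fragment could be counted and strands were not told apart. Of the low counts, 76.8% (control 2) to 84.8% (restraint 1) were even, the pattern that counting both ends leaves. The counts given here therefore exceed the number of fragments. FastQC, Trimmomatic, STAR and mm10 are named in the submitters' processing notes. GENCODE M30 annotates GRCm39, so coordinates of the table are given in GRCm39, and promoter sequences, from RefSeq, in GRCm38.p6. The deposited exon length per gene, another value of the table, gave CPM per kb. Symbols came from GENCODE M21 by identifier (52073 of 56691 genes).

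Genes were filtered with filterByExpr (count minimum 10, total minimum 15; 18440 left), normalized by TMM and tested with edgeR 4.0.16 (quasi-likelihood, group only) in R 4.3.3, adjusted by Benjamini-Hochberg (threshold 0.05), with DESeq2 1.42.0 and limma 3.58.1 as alternatives. The SE came from the fold change and the F statistic. Ratios were tested by exact two-sided permutation in Python 3.11.15. Alternatives covered normalization, filters, tests, a replicate block, halved counts, removal of the length trend (lowess, span 0.3) and leaving out each library.

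Of the genes named, the subunits are described, with every library's value for those past the threshold or with an unadjusted p under 0.05, the active-site pairs, the shared subunits and Polr3g and Polr3gl. Each list adds up to 2 genes per direction with the smallest p. Members, lists and pairs were chosen with earlier results of these data known. In a simulation of 5 against 5 libraries on 18024 genes, 100 genes were changed 1.5-fold and 100 changed 2-fold. They were drawn only from genes above a minimum mean count. The gene test recovered 56% of the 1.5-fold and 80% of the 2-fold changes, with 145 calls, 6.21% of them false. The data gave only 1 gene higher and 3 lower, which makes the adjusted threshold stricter there. These shares therefore do not give the recovery in the data, which was not measured. Results of 1 subunit are in the counts but are not reported here.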

Additional observations from a re-analysis of the deposited data

Results flagged for a closer look

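Polr3g in restraint 3 stood at 5.26 CPM while the remaining 4 restraint libraries ran from 3.89 to 4.18 CPM, a gap of 0.785 of the group's range (Dixon's 95% critical value for 5 is 0.710). It was the 1 of 64 groups of 5 values so examined, of which chance flags about 5%.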

How the results depend on the processing

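Of 22 alternatives, 0 passed a subunit as higher, and the subunits passed as lower numbered 1 with edgeR, 2 when all genes with at least 1 count were kept, 3 with DESeq2, and 0 with robust estimation or with the replicate block (0 to 1 when 1 library was left out). Over all genes, 1 was higher and 3 lower. These counts became 5 and 12 with library size only, 103 and 199 with all genes of at least 1 count, 139 and 192 with DESeq2, 21 and 66 with limma-voom and quality weights, and 20 and 48 with the length trend removed. They were 0 and 0 with robust estimation (2154 genes at an unadjusted p under 0.05) and with the replicate block (1704). Leaving out 1 library gave 0 to 9 higher and 0 to 83 lower. The cause of these differences was not tested.

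Replicate numbers are shared by the groups, but same-numbered libraries did not deviate together (correlations of -0.164 to 0.027, with 0 of 5 control libraries closest to their own number), so the numbers are not read as pairs. With the block Polr1c stood at -0.60 (edgeR adjusted p = 0.298).

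Signs near 0 were not stable. With the length trend removed Polr2i was 0.0459. Leaving out 1 library gave ranges of -0.0872 to 0.032 for Polr3f, -0.136 to 0.0139 for Polr1d, -0.0656 to 0.124 for Cd3eap, -0.118 to 0.0487 for Polr2i, -0.0126 to 0.0789 for Polr2m, -0.0484 to 0.1 for Polr2e, -0.0515 to 0.0261 for Polr3b, -0.0039 to 0.135 for Polr2a and -0.0914 to 0.0482 for Twistnb. The median SE of the subunits' log2 fold changes was 0.108, which limits what could be called.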
